A study of Mus musculus with 4 samples.

Results

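Catecholamine synthesis and transport genes were examined in 3 mouse cell lines profiled in a single CapSeq library. The set was defined by a list of 9 gene symbols (Th, Dbh, Ddc, Gch1, Slc18a1, Slc18a2, Slc6a2, Maoa, and Maob) out of 33565 genes in the files. All 9 were found once each, and 8 of them reached 10 UMIs over the 3 lines. The lines were Neuro-2a (N2a), a neuroblastoma line, NIH/3T3, an embryonic fibroblast line, and mouse embryonic stem cells (mESCs) of the E14TG2a line. N2a and NIH/3T3 cells grew in serum-containing medium, whereas mESCs grew on gelatin with serum, leukemia inhibitory factor, CHIR99021, and PD0325901. CapSeq holds single cells in gel capsules and adds barcodes by split-pool rounds, and the line of a cell was encoded by the first barcode (BC1), with N2a in plate columns 1 to 4, NIH/3T3 in columns 5 to 8, and mESCs in columns 9 to 12.

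Each line was 1 culture of an established line in 1 library, so no replicate and no test between lines exists, and a line stands only for itself as a model of its tissue. Barcodes were kept as cells from 1000 UMIs upward and with mitochondrial UMIs up to 20%, which gave 2323 N2a, 2037 NIH/3T3, and 2137 mESC cells with medians of 6185, 4863, and 4803 UMIs. No cell barcode was shared between lines (0 in each pair). Levels are given as CPM, the UMIs of a gene per 1000000 UMIs summed over the cells of a line, and 95% intervals are exact Poisson for levels, exact binomial for shares, and exact conditional for ratios. They cover counting error only. Of 6 marker genes per line, 5 were highest in N2a cells for the N2a list, 6 in NIH/3T3 for the fibroblast list, and 6 in mESCs for the stem cell list.

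Catecholamines are made from tyrosine. Tyrosine hydroxylase (Th) makes DOPA, with tetrahydrobiopterin as cofactor, DOPA decarboxylase (Ddc) makes dopamine, and dopamine beta-hydroxylase (Dbh) makes noradrenaline inside vesicles. Gch1, GTP cyclohydrolase, performs the entry step of tetrahydrobiopterin synthesis. The vesicular monoamine transporters Slc18a1 (VMAT1) and Slc18a2 (VMAT2) load vesicles, Slc6a2 is the noradrenaline transporter of the plasma membrane, and the monoamine oxidases Maoa and Maob degrade monoamines at the outer mitochondrial membrane. These genes together mark sympathetic neurons and adrenal chromaffin cells, the lineage in which neuroblastoma arises.

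The sequences upstream of the start of 4 genes on which the results turn are shown, because the genes differ in the line where they were detected. They were read from GRCm39 in the direction of transcription, upstream of the canonical transcript of GENCODE M39, up to 200 bases and without exon bases. For Th, the upstream window lay within an annotated exon, so only 30 bases around a motif are given. Capitals mark the cAMP response element (CRE) letters TGACGTCA, the CCAAT box letters, the GC box letters GGGCGG, and the TATA box letters TATAAA, or their reverse complements.
Gch1, high in N2a, chr14:47426916-47427101, minus strand: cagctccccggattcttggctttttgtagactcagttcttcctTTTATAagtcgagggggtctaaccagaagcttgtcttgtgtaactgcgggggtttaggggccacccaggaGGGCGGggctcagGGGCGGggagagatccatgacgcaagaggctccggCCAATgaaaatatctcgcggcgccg
Slc18a2, high in N2a, chr19:59249038-59249237, plus strand: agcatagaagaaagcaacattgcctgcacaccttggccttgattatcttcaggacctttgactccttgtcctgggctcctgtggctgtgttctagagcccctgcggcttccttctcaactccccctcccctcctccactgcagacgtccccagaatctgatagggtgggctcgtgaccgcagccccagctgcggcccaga
Ddc, high in mESCs, chr11:11848151-11848350, minus strand: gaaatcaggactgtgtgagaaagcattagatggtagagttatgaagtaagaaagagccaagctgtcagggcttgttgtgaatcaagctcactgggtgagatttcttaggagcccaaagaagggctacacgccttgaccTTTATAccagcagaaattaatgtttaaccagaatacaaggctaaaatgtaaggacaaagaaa
Th, highest in N2a but under 5 CPM, chr7:142453759-142453788, minus strand: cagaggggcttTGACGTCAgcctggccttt

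Within the 200 bases upstream of the canonical start, the CRE letters were found in Th and in none of the other 8 genes, against 1.60% of 21303 protein-coding genes. The GC box was found in Gch1, Maoa, and Maob, against 35.0% of all genes, the CCAAT letters only in Gch1, against 32.3%, and the TATA box in Ddc and Gch1, against 9.59%. Slc18a2, Slc18a1, Slc6a2, and Dbh held none of these letters. These windows include exon bases. All 200 bases lay in annotated exons for Th and Slc6a2, and 44, 35, 14, and 13 did for Maoa, Maob, Gch1, and Slc18a1. The GC box of Maoa ended 40 bases before the start and thus ran into these exon bases. The motifs were searched on both strands, no match in the sequences shown overlapped another, and a match describes letters only.

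The 9 genes did not share 1 pattern over the 3 lines. Gch1 and Slc18a2 were above 100 CPM in N2a and under 3 CPM elsewhere, Th was under 5 CPM in N2a with 1 UMI in each other line, and Dbh and Ddc were under 1 CPM in N2a. Ddc was highest in mESCs, and Maoa was found in NIH/3T3 and mESCs with little in N2a. A gene was counted as higher in one line when the 95% intervals of its CPM did not overlap and the ratio of CPM + 1 was at least 2. Between N2a and NIH/3T3, 4 of the 8 compared genes (Th, Gch1, Slc18a1, Slc18a2) were higher in N2a, where 17.5% of 19248 genes were, and 1 (Maoa) was lower, where 14.7% of genes were. Between N2a and mESCs, 3 (Th, Gch1, Slc18a2) were higher in N2a and 2 (Ddc, Maoa) lower, against 18.0% and 18.9% of genes. Between mESCs and NIH/3T3, 2 (Ddc, Slc18a1) were higher in mESCs and 0 lower, against 21.8% and 17.1%. The median log2 ratio of CPM + 1 of the compared members was 1.43 for N2a over NIH/3T3 and 0.64 for N2a over mESCs, where all compared genes had medians of 0.08 and 0.01.

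**Figure D1:**
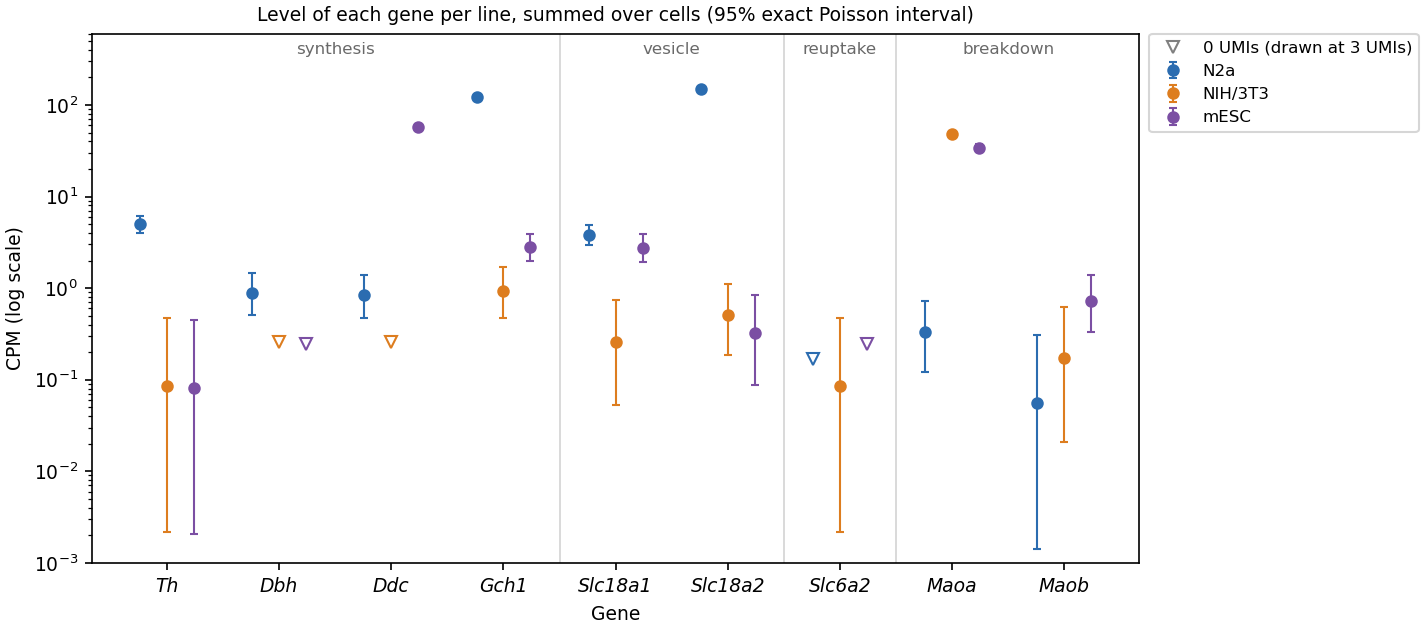
Level of each of the 9 genes in each line, as CPM on a log axis with 95% exact Poisson intervals, where open triangles mark 0 UMIs and are drawn at the level of 3 UMIs. Gch1 and Slc18a2 lie above 100 CPM only in N2a, Ddc reaches 57.1 CPM in mESCs, and Maoa lies at 33.8 CPM in mESCs and at 48.3 CPM in NIH/3T3.

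Of the synthesis genes, Gch1 (ENSMUSG00000037580, chromosome 14, 47391346 to 47426915, minus strand) had 2206 UMIs in N2a, 35 in mESCs, and 11 in NIH/3T3. Its level was 122.9 CPM (117.8 to 128.1) in N2a, 2.84 CPM (1.98 to 3.95) in mESCs, and 0.940 CPM (0.469 to 1.68) in NIH/3T3. N2a therefore had 131 times the level of NIH/3T3 (72.9 to 262) and 43.3 times the level of mESCs (31.0 to 62.3). The level in mESCs was 3.02 times that in NIH/3T3 (1.50 to 6.59), with intervals that did not overlap and a ratio of CPM + 1 just under 2 (log2 0.98), which other ways of summing the cells carried past 2 (log2 up to 1.37 as a mean over cells).

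Th (ENSMUSG00000000214, chromosome 7, 142443466 to 142484865, minus strand), the rate-limiting enzyme of the route, had 89 UMIs in N2a and 1 UMI in each of the other lines. This was 4.96 CPM (3.98 to 6.10) in N2a, 0.0812 CPM in mESCs, and 0.0855 CPM in NIH/3T3. The ratio was 58.0 over NIH/3T3 (10.1 to 2316) and 61.1 over mESCs (10.7 to 2439), where the width comes from the single UMI in the denominator. Of 2323 N2a cells, 77 held a Th UMI, or 3.31% (2.62% to 4.13%), of which 67 held 1 UMI and 1 held 4 UMIs. The single Th UMI of NIH/3T3 lay among the 5% of its cells with the highest UMI totals, without which the level was 0 CPM.

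Dbh (ENSMUSG00000000889, chromosome 2, 27055245 to 27074212, plus strand) had 16 UMIs in N2a, each in a different cell, and 0 in both other lines. The level in N2a was 0.891 CPM (0.509 to 1.45), at least 3.47-fold higher than in NIH/3T3 and at least 3.66-fold higher than in mESCs when 0 UMIs were taken to allow 3, without the counting error of the 16 UMIs. The exact conditional interval, which includes it, allows NIH/3T3 up to 0.398 and mESCs up to 0.378 of the N2a level. The intervals did not overlap, but the ratio of CPM + 1 stayed under 2, so Dbh was not counted as higher. An antisense long noncoding RNA that overlaps it, Dbhos, had 2.06 CPM in N2a, 0.0812 CPM in mESCs, and 0 in NIH/3T3. The strand setting of the counting is not given in the sources used here, so reads of Dbh and Dbhos cannot be told apart with certainty.

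Ddc (ENSMUSG00000020182, chromosome 11, 11762602 to 11848150, minus strand) was highest in mESCs, with 15 UMIs in N2a, 703 in mESCs, and 0 in NIH/3T3. The level was 57.1 CPM (52.9 to 61.4) in mESCs and 0.835 CPM (0.468 to 1.38) in N2a. Stem cells thus had 68.3 times the level of N2a (41.1 to 123) and a level at least 222-fold higher than NIH/3T3 on the same allowance of 3 UMIs. With the counting error of both lines, the interval allows NIH/3T3 up to 0.00554 of the mESC level. The opposite-strand gene 1700042O10Rik within Ddc had 4.14 CPM in mESCs and at most 0.171 CPM in the other lines. Its neighbors followed other patterns. Fignl1, 3.64 kb away, had 55.7 CPM in N2a, 118.3 CPM in mESCs, and 66.8 CPM in NIH/3T3, and the imprinted gene Grb10, 32.3 kb away, had 0.334, 44.6, and 248.4 CPM in N2a, mESCs, and NIH/3T3.

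Read along the route from tyrosine, no line held UMIs of all 3 enzymes in one cell. At least 1 UMI of Th, Ddc, or Dbh was found in 106 N2a cells (4.56%), 1 NIH/3T3 cell, and 519 mESCs (24.3%). Only 2 N2a cells held UMIs of more than 1 of the 3 enzymes, both with Th and Dbh, and 0 cells held all 3. At these depths, absence of a UMI in a cell does not show absence of the transcript.

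Of the vesicular transporters, Slc18a2 (ENSMUSG00000025094, chromosome 19, 59249238 to 59284695, plus strand) had 2652 UMIs in N2a, 4 in mESCs, and 6 in NIH/3T3. In the same order, its levels were 147.7 CPM (142.1 to 153.4), 0.325 CPM (0.0884 to 0.831), and 0.513 CPM (0.188 to 1.12). The ratio of N2a was 288 over NIH/3T3 (132 to 785) and 455 over mESCs (177 to 1671). Pdzd8, a protein-coding gene on the opposite strand that overlaps Slc18a2 on GENCODE M39, had 108.3 CPM in N2a, 90.97 CPM in mESCs, and 155.6 CPM in NIH/3T3. Its part in the Slc18a2 counts was not tested.

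Slc18a1 (ENSMUSG00000036330, chromosome 8, 69490135 to 69541887, minus strand) had 69 UMIs in N2a, 34 in mESCs, and 3 in NIH/3T3. In the same order, this was 3.84 CPM (2.99 to 4.86), 2.76 CPM (1.91 to 3.86), and 0.256 CPM (0.0529 to 0.749). N2a and mESCs did not differ beyond counting error (ratio 1.39, 0.911 to 2.17), and both were above NIH/3T3, N2a by 15.0 times (4.92 to 74.4) and mESCs by 10.8 times (3.38 to 54.8). Atp6v1b2, an opposite-strand protein-coding gene that overlaps it, was likewise lowest in NIH/3T3, with 114.5 CPM in N2a, 148.4 CPM in mESCs, and 55.2 CPM in NIH/3T3. The part of Atp6v1b2 in the Slc18a1 counts was not tested either.

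Slc6a2 (ENSMUSG00000055368, chromosome 8, 93686707 to 93728295, plus strand), the noradrenaline transporter, was at 0 UMIs in N2a and mESCs and at 1 UMI in NIH/3T3. A count of 0 allows up to 0.167 CPM in N2a and up to 0.129% of its 2323 cells with a UMI. It was the only member below the minimum of 10 UMIs and was not compared between lines.

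Of the monoamine oxidases, Maoa (ENSMUSG00000025037, chromosome X, 16485893 to 16554057, plus strand) had 6 UMIs in N2a, 416 in mESCs, and 565 in NIH/3T3. In the same order, the levels were 0.334 CPM (0.123 to 0.727), 33.8 CPM (30.6 to 37.2), and 48.3 CPM (44.4 to 52.5). NIH/3T3 had 145 times the level of N2a (66.0 to 396), and mESCs had 101 times (46.0 to 277). Between the 2 lines that held it, NIH/3T3 was 1.43 times above mESCs (1.26 to 1.63), which stayed under the ratio of 2. Maob (ENSMUSG00000040147, chromosome X, 16574807 to 16683686, minus strand) lies 20.8 kb from Maoa with its 3' end facing that of Maoa, and had 1 UMI in N2a, 9 in mESCs, and 2 in NIH/3T3. Its highest level was 0.730 CPM (0.334 to 1.39) in mESCs, and its ratio of mESCs to NIH/3T3 of 4.27 had an interval from 0.884 to 40.6. The neighboring pair thus differed in level in both lines that held Maoa, with 48.3 CPM for Maoa against 0.171 CPM for Maob in NIH/3T3, and 33.8 against 0.730 CPM in mESCs.

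Within each line the cells had been spread over 32 BC1 sequences, which divide 1 culture and describe technical spread. For Gch1 in N2a, the lowest of the 32 was 97.6 CPM, the median 121.4 CPM, and the highest 158.7 CPM, whereas the highest value in mESCs was 10.5 CPM and in NIH/3T3 5.59 CPM. For Slc18a2 in N2a, the values ran from 106.3 over a median of 143.7 to 179.7 CPM, with a highest value of 5.01 CPM in NIH/3T3. The groups of BC1 sequences did not overlap for either gene. For Ddc in mESCs, the values ran from 36.3 over 55.1 to 85.2 CPM, above the highest N2a value of 6.10 CPM.

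Maoa overlapped between the lines that held it. Its lowest, median, and highest values were 15.3, 33.3, and 74.0 CPM in mESCs and 13.5, 46.8, and 81.2 CPM in NIH/3T3, and the highest N2a value was 2.16 CPM. For Th in N2a, 29 of 32 BC1 sequences held a UMI, with a median of 4.44 CPM and a highest value of 14.3 CPM. The SD over BC1 sequences was close to the value that counting alone gives for Gch1 (16.4 against 15.2 CPM), Th (3.05 against 3.06 CPM), and Ddc in mESCs (12.2 against 12.6 CPM). It was larger for Slc18a2 in N2a (20.6 against 16.7 CPM) and for Maoa in NIH/3T3 (14.9 against 12.0 CPM) and mESCs (13.4 against 9.69 CPM).

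**Figure D2:**
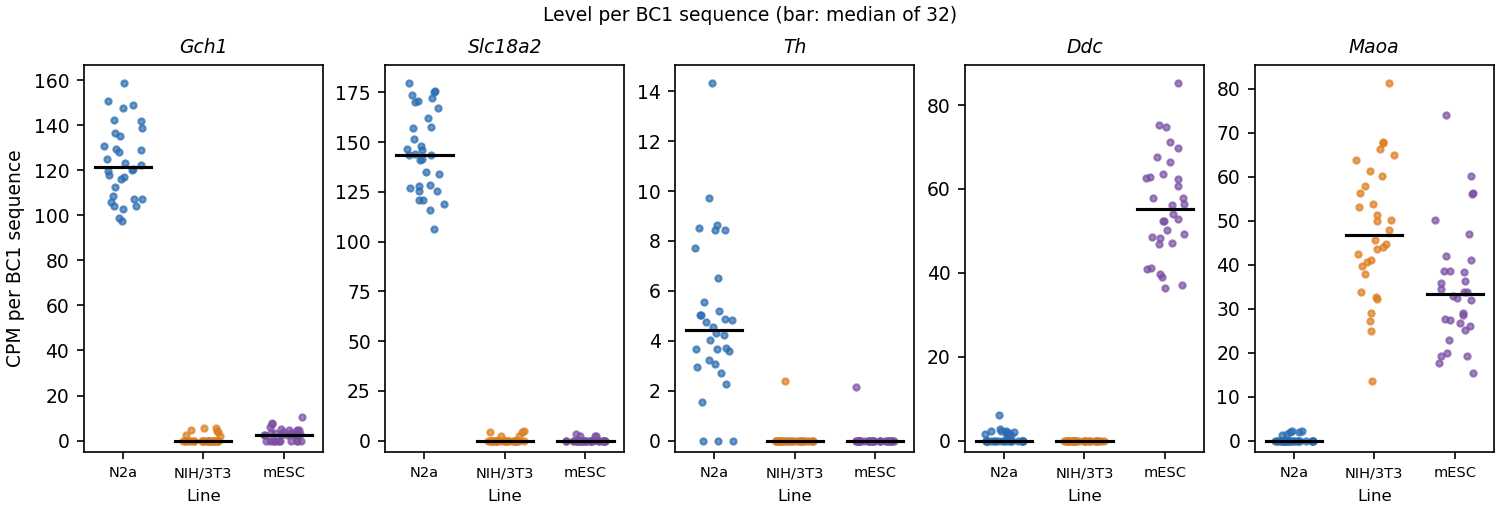
Level of 5 genes per BC1 sequence, as CPM, with 32 points per line and a bar at the median. For Gch1, Slc18a2, and Ddc the line with the high level lies apart from the other lines, whereas Maoa in NIH/3T3 and mESCs overlaps.

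The share of cells with a UMI followed the levels. Gch1 was found in 1133 of 2323 N2a cells, or 48.8% (46.7% to 50.8%), and Slc18a2 in 1237, or 53.3% (51.2% to 55.3%). In NIH/3T3, at a median depth of 4863 UMIs, the shares were 0.491% and 0.295%, and in mESCs, at 4803 UMIs, they were 1.54% and 0.187%. If every N2a cell had held the level of its line, the depths of the cells would give 53.2% for Gch1 and 58.6% for Slc18a2. A single cell held up to 11 UMIs of Gch1 and up to 18 of Slc18a2, and 261 and 350 cells held at least 3.

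Ddc was found in 518 of 2137 mESCs, or 24.2% (22.4% to 26.1%), against 0.646% of N2a cells and 0 of 2037 NIH/3T3 cells, which allows up to 0.147%. Maoa was found in 22.1% of NIH/3T3 cells (20.3% to 24.0%), in 16.0% of mESCs (14.4% to 17.6%), and in 0.258% of N2a cells. When each cell was thinned to 1000 UMIs, which left out 0 cells, the shares were 10.5% for Gch1 and 12.7% for Slc18a2 in N2a, 5.57% for Ddc in mESCs, and 4.03% and 3.37% for Maoa in NIH/3T3 and mESCs. Th then remained in 0.344% of N2a cells.

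The share of cells with a UMI changed with depth far more than the level did. When the cells of a line were divided into 5 equal groups by UMIs, Gch1 was found in 17.2% and Slc18a2 in 23.4% of the shallowest N2a group (median 1905 UMIs), and in 80.4% and 86.2% of the deepest (median 15640.5). Over the same groups, the level of Gch1 was between 108.4 and 133.9 CPM and that of Slc18a2 between 133.9 and 157.8 CPM. Ddc in mESCs stayed between 53.4 and 63.8 CPM while its share went from 9.58% to 45.4%.

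**Figure D3:**
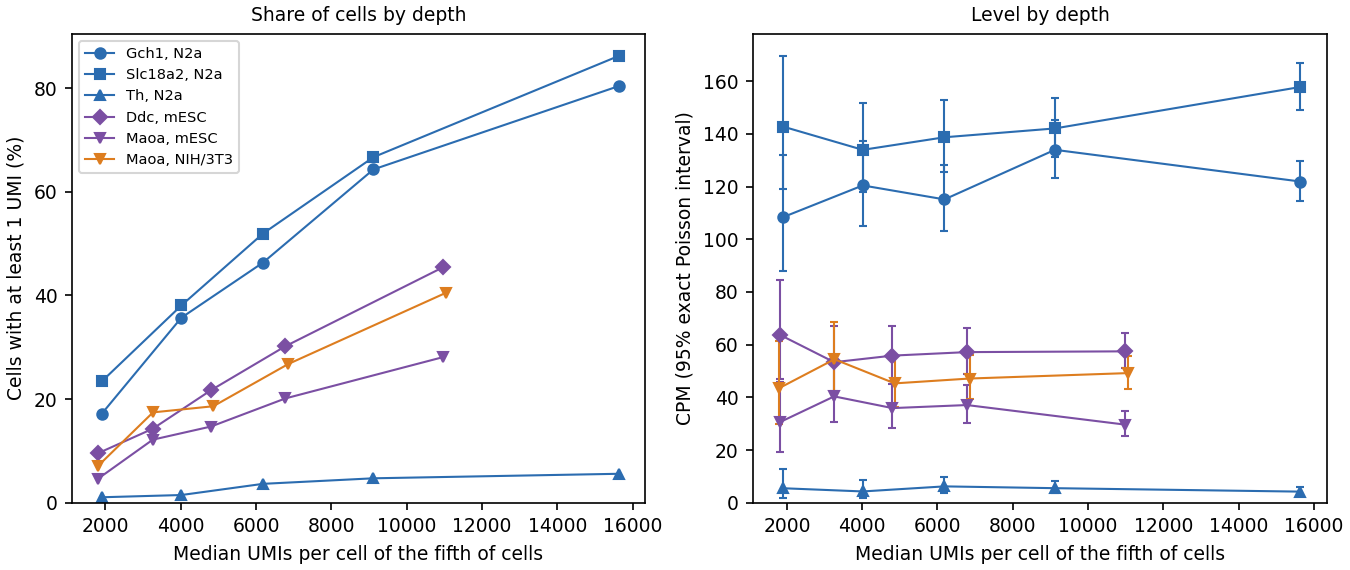
Share of cells with at least 1 UMI (left, percent) and level (right, CPM with 95% exact Poisson interval) for 5 genes in 5 equal groups of the cells of a line by UMIs, plotted at the median UMIs of each group. Shares are highest in the deepest group for each gene drawn, up to 86.2% for Slc18a2 in N2a, while its level lies between 133.9 and 157.8 CPM.

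UMIs of a line-restricted gene in another line can also come from free RNA or exchanged barcodes, and the size of these was not measured. The marker lists are given beside the members as a description only. A marker found in another line can itself be expressed there. The 6 N2a markers reached 0.265% (0.173% to 0.388%) of their N2a level in NIH/3T3 and 2.22% in mESCs, where Gata3 was higher than in N2a and single genes ran from 0.442% upward. The NIH/3T3 markers reached 0.133% (0.0913% to 0.186%) in N2a and 0.498% (0.397% to 0.615%) in mESCs, where single genes ran up to 18.99%. The mESC markers reached 0.251% (0.217% to 0.289%) in N2a and 0.367% (0.316% to 0.424%) in NIH/3T3. Slc18a2 had 0.347% (0.127% to 0.756%) of its N2a level in NIH/3T3 and 0.220% (0.0599% to 0.563%) in mESCs. The source of these UMIs was not tested. Gch1 had 0.765% (0.382% to 1.37%) in NIH/3T3, where its interval overlaps that of the N2a markers, and 2.31% (1.61% to 3.22%) in mESCs.

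Ddc in N2a was at 1.46% (0.820% to 2.42%) of its mESC level, above the 0.251% of the mESC markers together and the 0.500% of the highest single one. Maoa in N2a was at 0.692% (0.254% to 1.51%) of its NIH/3T3 level, above the 0.133% of the NIH/3T3 markers together. The highest single marker, Thy1, was at 0.931%, a value that rests on 1 UMI. Maoa was also at 33.8 CPM in mESCs, whose markers reached 0.251% in N2a. The comparison with the NIH/3T3 markers leaves this line out, and the source of the Maoa UMIs in N2a was not tested. In barcodes with fewer than 1000 UMIs, N2a held 108.7 CPM of Gch1 (96.6 to 121.8) and 119.4 CPM of Slc18a2 (106.7 to 133.2), mESCs 51.7 CPM of Ddc, and NIH/3T3 42.4 CPM of Maoa.

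Gch1 and Slc18a2 were found in the same N2a cells as often as their separate shares gave. Of 2323 N2a cells, 638 held no UMI of any member, 898 held 1 member, 714 held 2, and 73 held 3 or more (72 with 3 and 1 with 4). Gch1 and Slc18a2 were both found in 716 cells, where the product of their shares within 10 groups of cells of like depth gave 716.8. Of the 77 cells with Th, 50 held Slc18a2 (50.3 from depth) and 43 held Gch1 (46.8 from depth). In mESCs, Ddc and Maoa were found together in 91 cells, against 105.7 from depth.

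Over N2a cells, the genes most correlated with Slc18a2 among 6487 genes with at least 500 UMIs were Pde10a (r = 0.19), Maml3 (r = 0.17), and Pitpnc1 (r = 0.16), and Gch1 had r = 0.04. These values describe sparse counts of cells of 1 library and are too weak to group genes.

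The wider pathway was described with lists of named genes. Of the 7 listed genes of tetrahydrobiopterin metabolism, 1 was higher in N2a than in NIH/3T3 and 3 than in mESCs, and 0 were lower in either comparison, where 17.5% and 18.0% of all genes were higher in N2a. The count of 1 against NIH/3T3 is near that share. Pcbd1, which recycles the cofactor after hydroxylation, had 40.8 CPM (37.9 to 43.9) in N2a, 3.17 CPM in mESCs, and 0.342 CPM in NIH/3T3. Gchfr, the feedback regulator of Gch1, had 50.0 CPM in N2a and 40.7 CPM in NIH/3T3, and was at 0.812 CPM (0.389 to 1.49) in mESCs. Spr, which completes the cofactor, had 48.7, 64.8, and 46.3 CPM in N2a, NIH/3T3, and mESCs.

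Of the 6 compared genes of aromatic amino acid uptake and hydroxylation, 3 were higher and 1 lower in N2a in each comparison, where 17.5% and 18.0% of all genes were higher and 14.7% and 18.9% lower, so that the single lower gene is near the share of all genes. Slc7a5, which with Slc3a2 forms a carrier of large neutral amino acids, had 228.2 CPM (221.3 to 235.3) in N2a, 73.6 CPM in mESCs, and 54.0 CPM in NIH/3T3. Its partner Slc3a2 had 216.5, 175.9, and 138.3 CPM in the same order and was not counted as higher or lower in any comparison. Slc16a10, an aromatic amino acid carrier, had 8.69 CPM in N2a and 72.5 CPM in NIH/3T3. Tph2 and Tph1, the tryptophan hydroxylases of serotonin synthesis, which use the same cofactor as Th and need Ddc for the next step, had 28.2 CPM (25.8 to 30.8) and 4.68 CPM (3.73 to 5.79) in N2a and at most 7.86 and 0.0855 CPM in the other lines.

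Of the 4 listed genes that supply Dbh, 1 was higher and 1 lower in N2a in each comparison. Of all genes, 17.5% and 18.0% were higher and 14.7% and 18.9% lower, from which counts of 4 genes are not set apart. Cyb561, which carries electrons into the vesicle, had 24.7 CPM (22.5 to 27.1) in N2a, 6.49 CPM in mESCs, and 0.940 CPM in NIH/3T3. The copper transporter Atp7a was lower in N2a (23.1 CPM) than in NIH/3T3 (49.9 CPM) and mESCs (54.5 CPM). Slc31a1 (38.2, 50.4, and 34.4 CPM in N2a, NIH/3T3, and mESCs) and Atox1 (194.7, 361.4, and 110.8 CPM) were counted as neither in N2a. Pnmt, which makes adrenaline, and Slc22a2 were at 0 UMIs in all 3 lines, and Slc6a3, the dopamine transporter, had at most 3 UMIs. Slc29a4, a low-affinity monoamine carrier, had 8.47 CPM (7.17 to 9.92) in N2a, 3.33 CPM in mESCs, and 0.171 CPM in NIH/3T3.

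Of the other breakdown genes, Aldh2, which oxidizes the aldehydes that the oxidases form, had 20.1 CPM in N2a, 91.9 CPM in mESCs, and 1.03 CPM in NIH/3T3. Of the 5 compared aldehyde and sulfate genes, 1 was higher and 2 were lower in N2a than in NIH/3T3, and 0 were higher and 1 lower than in mESCs. With 5 genes, these counts are not set apart from the 17.5% and 18.0% of all genes that were higher and the 14.7% and 18.9% that were lower.

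Of the 9 compared sympathoadrenal transcription factors, 8 were higher in N2a than in NIH/3T3 and 7 than in mESCs, with 0 lower in either, where 17.5% and 18.0% of all genes were higher. Phox2a and Hand2, regulators of the noradrenergic lineage, had 125.8 CPM (120.7 to 131.1) and 404.2 CPM (395.0 to 413.6) in N2a.

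**Figure D4:**
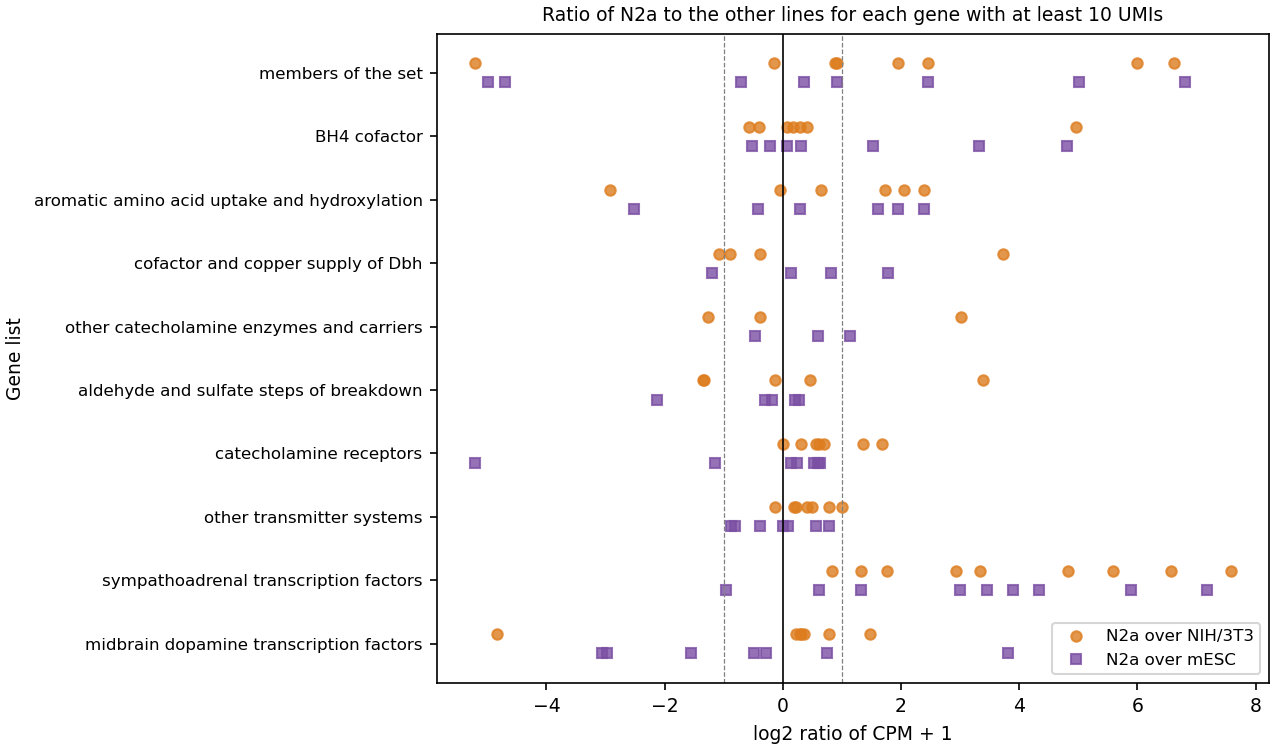
Log2 ratio of CPM + 1 of N2a over NIH/3T3 (circles) and over mESCs (squares) for each gene with at least 10 UMIs, by gene list, with dashed lines at a ratio of 2 in either direction. Members lie on both sides of 0, from -5.21 for Maoa over NIH/3T3 to 6.81 for Slc18a2 over mESCs. The 9 compared sympathoadrenal factors lie above 0 over NIH/3T3, and over mESCs Gata3 lies below 0 (-0.96).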

How the data were processed

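The authors converted the sequencing data with bcl2fastq, assigned reads to lines by BC1, trimmed the TSO with Cutadapt, and aligned and counted reads with STARsolo on GRCm39 (GENCODE M30). They deposited raw UMI counts per gene and barcode, unfiltered, in 1 matrix per line and in a pooled matrix of the same reads, which served only as an alternative. Whether intronic reads were counted, and on which strand, is not given in the sources used here. Totals were 20662884 UMIs in the N2a, 13505027 in the NIH/3T3, and 13875356 in the mESC matrix.

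Counts were summed over barcodes that passed the limits of 1000 UMIs and 20% mitochondrial UMIs. Doublets were not called. Levels are counts per 1000000 (CPM), and the ratio used a pseudocount of 1 CPM over genes with at least 10 UMIs. Annotation was GENCODE M39 on GRCm39 (32953 of 33565 identifiers found). The rule of comparison was checked on simulated counts. Python 3.11.15, numpy 2.4.6, scipy 1.17.1, R 4.3.3, and edgeR 4.0.16 were used, edgeR only for TMM factors. The members and lists were chosen with earlier results of these data known. Of each list, at most the 4 genes with the highest CPM, genes at 0, nearest neighbors, and the genes most correlated with Slc18a2 were named. Pcbd1, Gchfr, Tph1, Slc6a3, and the overlapping genes fall outside this rule and were named after their values were seen. Rnls and Akr1b1 were not analysed here, and the levels of some listed genes are not reported here.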

Additional observations from a re-analysis of the deposited data

Results flagged for a closer look

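For some members, the pooled matrix held more UMIs than the 3 matrices of the lines together. This surplus, which the comparisons do not use, exceeded the 3 UMIs that a count of 0 was taken to allow. It is a net difference, and single UMIs were not traced. The surplus was 76 UMIs for Slc18a2, or 2.48% of its pooled UMIs, with 54 at BC1 sequences of N2a, 10 of NIH/3T3, and 12 of mESCs. Gch1 had 59 (43, 11, and 5 in the same order), Ddc 22 (4, 0, and 18), Maoa 13 (0, 4, and 9), and Th 5 (4, 1, and 0). Over all genes, the surplus was 2.32% of pooled UMIs. For Slc18a2 in NIH/3T3, the surplus of 10 UMIs compares with 8 in the matrix of the line over all barcodes.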

How the results depend on the processing

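The numbers of members counted as higher or lower in the 3 pairs of lines stayed within 1.5 times of those reported under the other cells, barcodes, denominators, weights, pooled counts, TMM library sizes, gene minimum, pseudocount, and ratios that were tried, with 1 exception. At a ratio of 3 in place of 2, 1 member (Ddc) in place of 2 was higher in mESCs than in NIH/3T3. That count was 3 in the pooled matrix, as a mean over cells, without the 5% of cells with the most UMIs, and without mitochondrial and ribosomal protein genes, where Gch1 passed the ratio of 2 (log2 1.008 to 1.37). At a ratio of 1.5 or a pseudocount of 0.1 CPM, 6 members in place of 4 were higher in N2a than in NIH/3T3, 4 in place of 3 higher and 3 in place of 2 lower in N2a than in mESCs, and 3 in place of 2 higher in mESCs than in NIH/3T3. Both settings are looser for all genes as well, and the shares of all genes under them are not reported here. These larger counts are therefore not read as a result about the members. The shares of all genes counted in the 6 directions, 14.7% to 21.8% as reported, were 8.87% to 13.3% at a ratio of 3 and, with more genes tested, 8.42% to 12.5% without the minimum of 10 UMIs. No counted ratio changed direction. The sizes of the log2 ratios depend on the pseudocount, and 19 of 27 moved at a pseudocount of 0.1 CPM. Of 27 shares of cells, 21 moved lower over all barcodes and 20 after thinning to 1000 UMIs. Of 27 levels, 1 left its interval without the 5% of cells with the most UMIs, 1 as a mean over cells, and 5 without mitochondrial and ribosomal protein genes. No paired analysis was possible because each line has 1 library. Depth limits Dbh, Slc6a2, and Maob, which had at most 16 UMIs in any line.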

Other observations

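Adrb3 was the catecholamine receptor with the highest level in any line. Of the 7 compared receptor genes of 14 listed, 2 were higher in N2a than in NIH/3T3 and 0 than in mESCs, where 2 were lower. Of all genes, 17.5% were higher in N2a than in NIH/3T3 and 18.9% lower than in mESCs, and with 7 genes the counts are not set apart from these shares. Adrb3, the beta-3 adrenergic receptor, had 52.5 CPM (48.5 to 56.7) in mESCs, in 22.6% of cells, against 0.446 CPM in N2a and 0.171 CPM in NIH/3T3. Drd3, a dopamine receptor, had 3.84 CPM in N2a, 3.08 CPM in mESCs, and 0.513 CPM in NIH/3T3, and Adra1b had 2.23, 1.14, and 0.256 CPM in the same order. Drd1, Drd2, and Drd5 were at 0 UMIs in all 3 lines.

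Of the factors of midbrain dopamine neurons, Nr4a2 had 37.9 CPM (35.1 to 40.9) in N2a, 1.79 CPM in mESCs, and 21.7 CPM in NIH/3T3. En1 was at 0 UMIs in N2a and had 27.6 CPM in NIH/3T3, and Lmx1b and En2 had 9.98 and 8.68 CPM in mESCs and at most 0.390 and 0.167 CPM elsewhere. Foxa2 was at 0 UMIs in all 3 lines. Of 12 genes of other transmitter systems, 7 were compared, and 1 (Slc17a7) was higher in N2a than in NIH/3T3, near the 17.5% of all genes, and 0 than in mESCs. Slc18a3 and Slc5a7 of cholinergic neurons and Slc17a6 of glutamatergic neurons were at 0 UMIs in all 3 lines.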
